A study of Danio rerio with 15 samples.

Results

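The genes described here encode the subunits of the glutamate receptors of the zebrafish. They were chosen by symbol, from a table that pairs gene IDs with symbols: every ID in the deposited table whose symbol, ignoring case, starts with gria, grik, grin, grid or grm and goes on with a digit. The rule took 44 of 22513 genes. Of these, 42 encode receptor proteins, with 8 AMPA, 5 kainate, 13 NMDA, 3 delta and 13 metabotropic receptor genes. The other 2, both named GRID2IP, encode a protein that binds delta receptors and are no receptors, so they are counted apart. The symbol is shared with another ID for 28 of the 44, and these copies are told apart by Ensembl ID. A further ID with the symbol GRIK2 is absent from the deposited table, so it could not be analysed here.

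RNA was sequenced from 7 brain tumors and 8 normal brains of zebrafish, with libraries made from polyadenylated RNA and read as single short reads. The tumors are NRAS-driven CNS-PNETs, primitive neuroectodermal tumors of the central nervous system, dissected from tumor-bearing fish, and they were set against whole brain of control fish. Both kinds of tissue were put in RNAlater, snap frozen and lysed in the same way. The labels give neither strain nor age, neither the NRAS allele nor its promoter, and do not say whether each library is a separate fish, so the p-values below measure the spread between these libraries.

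Glutamate is the main excitatory transmitter of the vertebrate brain. AMPA, kainate and NMDA receptors are ion channels built of several subunits. AMPA receptors carry most fast transmission, kainate receptors modulate it before and after the synapse, and NMDA receptors open only when glutamate and a co-agonist, glycine or D-serine, are bound while the membrane is depolarized. Delta receptors resemble these channels but bridge the synapse by binding cerebellin, and metabotropic receptors act through G proteins. AMPA and NMDA receptors are known from mammals to be made by neurons and also by cells of the oligodendrocyte lineage.

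Library totals lay between 13605588 and 21347976 counts. Levels are given as CPM (read counts scaled to a common library size), for the lowest, median and highest library. The zebrafish gene NRAS (ENSDARG00000038225), which shares its name with the tumor driver, had 21.2, 28.1 and 46.2 CPM in brain tumors. In normal brains it had 7.49, 8.53 and 10.8 CPM, with no overlap. Whether its reads came from the driver or from the fish's own gene is not known here. Over all 19260 tested genes, 33.4% were called lower and 43.5% higher in brain tumors, at an adjusted p below 0.05. Of 25 tested genes of a list of general neuron markers, 23 were lower and 2 higher in brain tumors. Their summed level was 1388 to 4124 CPM in brain tumors and 13865 to 16003 CPM in normal brains. No neuron marker was at 0 in every library of a group. The oligodendrocyte lineage list summed to 14698 to 43864 CPM in brain tumors and 12815 to 19316 CPM in normal brains. Of its 19 genes 14 were higher, 2 were lower and 3 did not pass. The microglia and macrophage list summed to 2577 to 5341 CPM in brain tumors and 1178 to 1488 CPM in normal brains, with 19 of 21 genes higher and 1 lower. Of 15 tested radial glia and astroglia genes, 5 were higher and 5 lower. Brain tumor 13 had the lowest neuron marker level, a mean of 2.46 on the log2 CPM scale. The other tumors had means of 4.14 to 5.91, and the means of normal brains were 7.59 to 7.71. Transcripts of other tissues were also present. Muscle genes summed to 1110 to 2858 CPM in brain tumors 5, 6, 12 and 14, 34 to 155 CPM in the other tumors and 34.2 to 400 CPM in normal brains, and 9 of 13 tested muscle genes were higher in brain tumors. Skin genes reached 1401 CPM in brain tumor 12, 699 CPM in brain tumor 14 and 4292 CPM in normal brain 4. Normal brain 1 held 12784 CPM of liver genes and normal brain 2 held 336 CPM of photoreceptor genes. The part of these tissues in the results below was not tested.

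Most glutamate receptor genes were lower in the tumors. All 44 genes passed the filter on low counts, and in edgeR's quasi-likelihood test 40 were lower in brain tumors and 3 higher, at an adjusted p below 0.05 over 19260 genes. Over all tested genes 33.4% were called lower and 43.5% higher. The median log2 fold change, tumor over normal, was -3.17 over the 44 genes and 0.21 over all tested genes. In 38 of the 44, every tumor lay below every normal brain, which held for 24.6% of all tested genes. In none did every tumor lie above every normal brain, against 27.2% of all tested genes. A fall of at least 2-fold was called in 37 members and 25% of all tested genes, and one of at least 8-fold in 25 members and 7.05% of all. The median of the neuron markers was -3.28, and brain tumor 13, lowest for these markers, had the lowest level of 33 of the 44 genes. In these bulk samples fewer neurons and less RNA per neuron cannot be told apart.

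**Figure D1:**
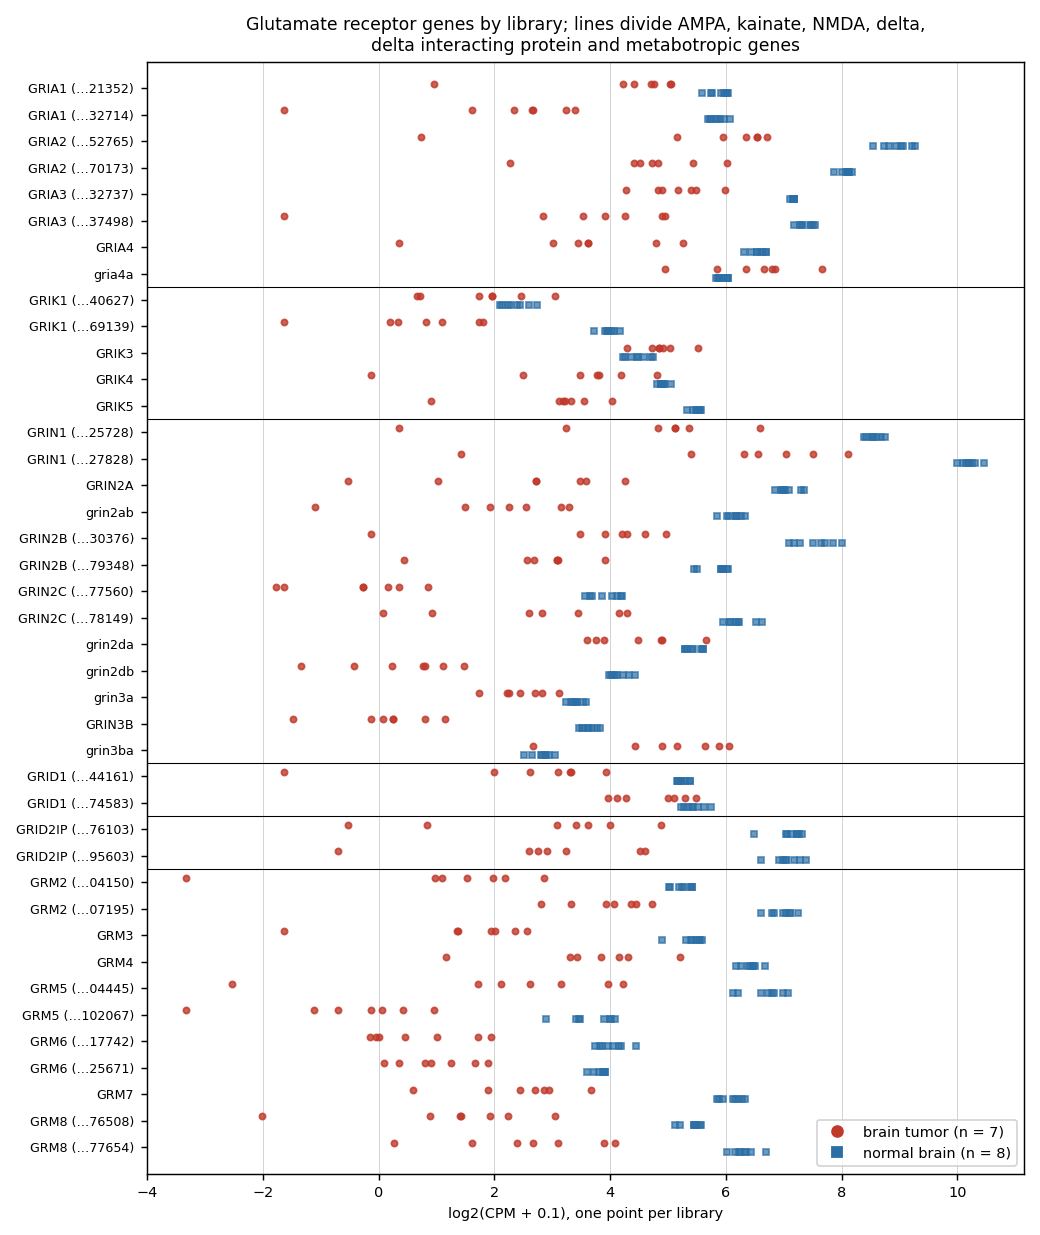
Level of glutamate receptor genes in each library, as log2(CPM + 0.1) on the horizontal axis, with 7 brain tumors as red circles above 8 normal brains as blue squares in each row. The tumors lie left of the normal brains in most rows, and gria4a, GRIK3 and grin3ba are the rows where most tumors lie to the right.

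The summed level per length of the 42 receptor genes shows the size of the change. It had a lowest, median and highest value of 83.4, 165 and 279 FPKM (fragments per kilobase of gene, scaled to the library's total count) in brain tumors and 894, 1059 and 1115 FPKM in normal brains. Metabotropic receptors had 3.99, 19.3 and 47.1 FPKM in brain tumors and 184, 239 and 246 FPKM in normal brains. NMDA receptors had 16.3, 46.4 and 97.5 FPKM in brain tumors and 357, 407 and 444 FPKM in normal brains. In neither class did the groups overlap. AMPA receptors had 49.1, 70.8 and 99.5 FPKM in brain tumors and 280, 328 and 360 FPKM in normal brains. Kainate receptors had 9.44, 17.3 and 22 FPKM in brain tumors and 29.5, 33 and 35.4 FPKM in normal brains, again with no overlap.

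Of the 8 AMPA receptor genes, 7 fell and 1, gria4a, rose. The median log2 fold change was -2.74. GRIA2 (ENSDARG00000052765), whose product is the subunit that makes AMPA receptors of mammals largely impermeable to calcium, had 1.55, 81.4 and 104 CPM in brain tumors and 371, 504 and 612 CPM in normal brains. Its lowest value was in brain tumor 13, and no tumor came near the normal range. Its log2 fold change was -2.9 ± 0.52 (SE, adjusted p = 8.92e-05). GRIA3 (ENSDARG00000032737), another pore-forming subunit, had 19.2, 35.8 and 62.8 CPM in brain tumors and 138, 143 and 145 CPM in normal brains. The normal brains were almost level for it, and the tumors spread widely below them. Its log2 fold change of -1.93 ± 0.19 had the smallest p of the class (adjusted p = 1.6e-07). Among the copies of GRIA1, GRIA2 and GRIA3 and the single GRIA4, log2 fold changes lay between -3.36 and -1.37.

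The exception in this class was gria4a, a copy of the subunit gene GRIA4. It had 30.9, 101 and 203 CPM in brain tumors and 56.6, 60.9 and 65.6 CPM in normal brains. Brain tumors 5, 7, 8, 13 and 14 were above every normal brain, brain tumor 6 was within their range and brain tumor 12 below it. The highest value was in brain tumor 13, the library in which most other members were lowest. The log2 fold change was 0.7 ± 0.27 (adjusted p = 0.0257). The call did not hold with median-ratio size factors, which put the median of all genes at 0.02 (0.51, adjusted p = 0.0986), nor without brain tumor 13 (0.43, adjusted p = 0.0839) or brain tumor 14 (0.62, adjusted p = 0.0688), nor without normal brain 1, 2, 4 or 11 (0.59 to 0.62, adjusted p 0.0677 to 0.0783). In the authors' deposited table the log2 fold change of gria4a was 0.5014 with an adjusted p of 0.0972. The other copy, GRIA4, had 1.18, 12.1 and 38.2 CPM in brain tumors and 79.2, 94.9 and 103 CPM in normal brains, and fell by 2.58 on the log2 scale (SE 0.46, adjusted p = 8.09e-05).

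Per length, the make-up of the AMPA class therefore differed between the groups. The share of the summed AMPA level that came from gria4a was 37.3% ± 24.7 in brain tumors (SD, n = 7) and 5.09% ± 0.509 in normal brains (SD, n = 8), with ranges of 15.1% to 88.6% and 4.47% to 5.73%. The highest share, 88.6%, was in brain tumor 13, and without that tumor the mean share in brain tumors was 28.7%. Both GRIA2 copies together held 29.5% ± 14.8 in brain tumors and 55.4% ± 1.83 in normal brains. The highest tumor share of GRIA2, 44.2%, was below the lowest normal share of 52.8%. A share is a ratio within a library and does not depend on library scaling, but it rises when the other genes of its class fall. By mean FPKM over the libraries of a group, gria4a ranked 1 of the 42 receptor genes in brain tumors and 17 in normal brains, and it was the top receptor gene in 4 of 7 tumors, namely 5, 7, 13 and 14. Without brain tumor 13 its mean in brain tumors was 21 FPKM and its rank 2, behind GRIN1 (ENSDARG00000027828) at 25 FPKM.

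**Figure D2:**
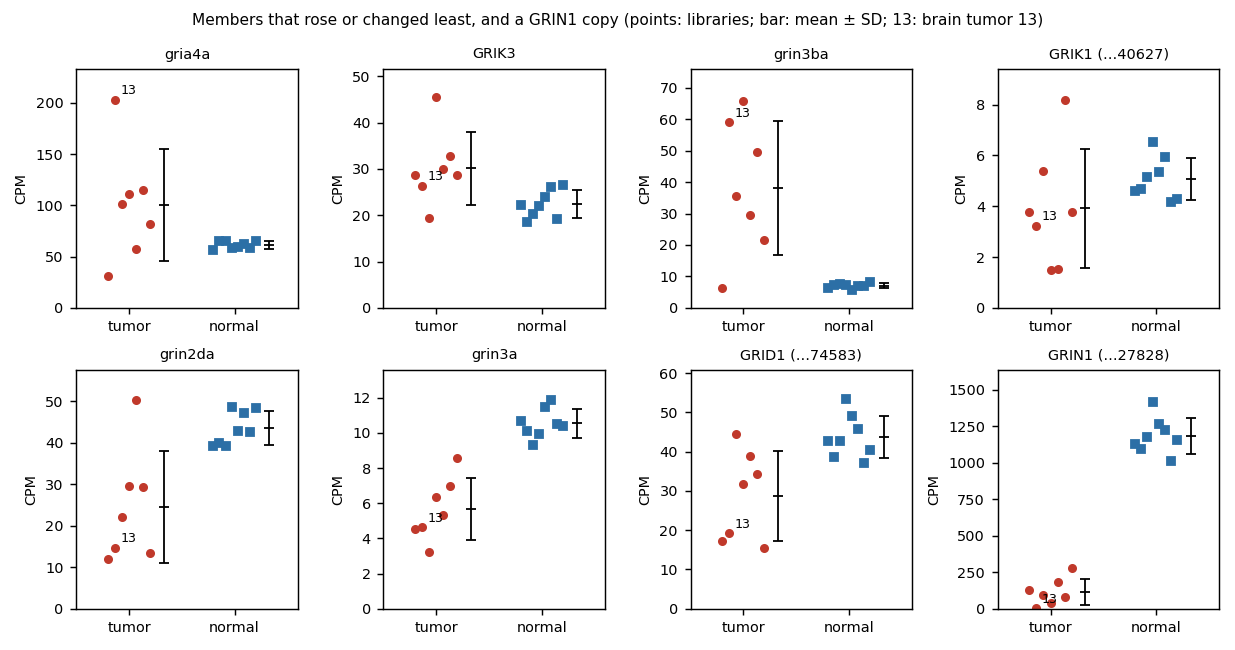
CPM per library of the members that rose or changed least and, for scale, of a GRIN1 copy, with brain tumors (red) left of normal brains (blue) and the mean ± SD beside each group. Brain tumor 13, marked 13, has the highest gria4a value, 203 CPM, and the lowest GRIN1 value, 2.58 CPM.

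Of the 5 kainate receptor genes, 3 fell, 1 rose and 1 did not pass. Their median log2 fold change, -1.21, was the nearest to 0 of the classes. GRIK3, a subunit that can form a channel by itself, had 19.5, 28.6 and 45.5 CPM in brain tumors and 18.6, 22.1 and 26.6 CPM in normal brains. The groups overlapped, with 5 tumors above every normal brain and none below all of them. Its log2 fold change was 0.43 ± 0.15 (adjusted p = 0.0148), little above the shift of 0.21 of all genes. It was 0.23 (adjusted p = 0.161) under median-ratio scaling, 0.32 (adjusted p = 0.062) for library size alone, and 0.3 to 0.35 without brain tumor 8 or normal brain 1, 2, 4 or 11 (adjusted p 0.0553 to 0.0955). In libraries 9 to 15 alone it was 0.04 (adjusted p = 0.881), and the log2 fold change in the authors' deposited table was 0.2241 (adjusted p = 0.186).

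GRIK5, an auxiliary-type subunit that needs a partner to form a channel, had 1.77, 9.22 and 16.3 CPM in brain tumors and 40.1, 45.8 and 47.5 CPM in normal brains. It fell without overlap, by 2.25 on the log2 scale (SE 0.29, adjusted p = 2.72e-06). GRIK4, the other subunit of that kind, had a log2 fold change of -1.21 ± 0.42 (adjusted p = 0.0155). One copy of GRIK1 (ENSDARG00000069139) had 0.221, 1.67 and 3.37 CPM in brain tumors and 13.1, 15.6 and 17.8 CPM in normal brains. It had the smallest p among the kainate genes that fell (log2 fold change -3.1 ± 0.37, adjusted p = 1.18e-06). The other copy of GRIK1 (ENSDARG00000040627) had 1.48, 3.78 and 8.2 CPM in brain tumors and 4.17, 4.91 and 6.52 CPM in normal brains. Tumors lay on both sides of the normal range, and it did not pass the test (-0.37 ± 0.31, adjusted p = 0.272), though without brain tumor 7, its highest library, it did (-0.66, adjusted p = 0.0368). Of the summed kainate level per length, GRIK3 held 62.1% ± 13.6 in brain tumors (SD, n = 7) and 25.2% ± 2.03 in normal brains (SD, n = 8), with no overlap. GRIK5 held 12.9% ± 4.57 in brain tumors and 35.9% ± 1.05 in normal brains.

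Of the 13 NMDA receptor genes, 12 fell and 1, grin3ba, rose, and 9 fell at least 8-fold. GRIN1 encodes the obligatory subunit that binds glycine or D-serine. Its copy ENSDARG00000027828, the receptor gene of highest FPKM in every normal brain, had 2.58, 94.2 and 277 CPM in brain tumors and 1014, 1164 and 1415 CPM in normal brains. Even the highest tumor was far below the lowest normal brain. The log2 fold change of this GRIN1 copy was -3.36 ± 0.59 (adjusted p = 7.1e-05), and that of the other copy (ENSDARG00000025728) -3.43 ± 0.57 (adjusted p = 4.06e-05). In the authors' deposited table these copies were less alike, at -3.4112 for the first and -2.7767 for the other. The GRIN2 subunits bind glutamate and set the kinetics of the channel. GRIN2C (ENSDARG00000077560) had 0.193, 0.732 and 1.71 CPM in brain tumors and 11.8, 15.3 and 18.3 CPM in normal brains. This was the smallest p of the class and the largest fall of the 44 genes (log2 fold change -4.17 ± 0.36, adjusted p = 3.63e-08). The 2 genes of GRIN2A, the subunit typical of mature synapses in mammals, fell by 4.03 (GRIN2A, SE 0.5) and 3.79 (grin2ab, SE 0.42) on the log2 scale, and those of GRIN2B, which comes first in mammalian development, by 3.47 (ENSDARG00000030376, SE 0.46) and 2.92 (ENSDARG00000079348, SE 0.33).

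The NMDA genes that changed least downward were grin2da and grin3a. For grin2da the values were 12, 22.1 and 50.3 CPM in brain tumors and 39.2, 42.7 and 48.7 CPM in normal brains. Brain tumor 6 was above every normal brain and the other tumors below all of them (log2 fold change -0.83 ± 0.26, adjusted p = 0.00785). In libraries 1 to 8 alone it was -0.49 (adjusted p = 0.212). For grin3a, which encodes a glycine-binding subunit, they were 3.22, 5.34 and 8.55 CPM in brain tumors and 9.3, 10.4 and 11.9 CPM in normal brains, without overlap (-0.9 ± 0.18, adjusted p = 0.000221).

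The member that rose most was grin3ba, a copy of the gene of GRIN3B. In mammals GRIN3 subunits bind glycine, lower the calcium permeability of NMDA receptors and can form channels with GRIN1 that glycine alone opens. It had 6.25, 35.6 and 66 CPM in brain tumors and 5.58, 7.12 and 8.19 CPM in normal brains. Of the 7 tumors 6 were above every normal brain, from 21.5 CPM up, and brain tumor 12 was within the normal range. The log2 fold change was 2.45 ± 0.35 (adjusted p = 8.46e-06), and the call held in each of the 27 alternatives, with values from 1.99 to 2.69. The other copy, GRIN3B, had 0.258, 1.09 and 2.12 CPM in brain tumors and 10.9, 12.2 and 14.1 CPM in normal brains. Every tumor was below every normal brain, and it fell by 3.41 on the log2 scale (SE 0.3, adjusted p = 3.7e-08).

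Per length, grin3ba held 25.9% ± 25 of the summed NMDA level in brain tumors (SD, n = 7; 3.26% to 72.8%) and 0.439% ± 0.0581 in normal brains (SD, n = 8). Its highest share, 72.8%, was in brain tumor 13, and without that tumor its mean share in brain tumors was 18.1%. Both GRIN1 copies together held 46.8% ± 25 in brain tumors, from 3.56% to 74.9%, and 74.8% ± 0.859 in normal brains, and the ranges overlapped. The GRIN2 genes together held 23% ± 4.93 in brain tumors and 23.4% ± 0.829 in normal brains, but their make-up differed. The share of grin2da was 8.43% ± 4.03 in brain tumors and 1.74% ± 0.148 in normal brains, with no overlap. Mean shares were lower in tumors, without overlap, for GRIN2A (1.37% against 3.4%), grin2ab (1.66% against 3.31%) and GRIN2C (ENSDARG00000077560, 0.311% against 0.783%). The shares of the other GRIN2 genes overlapped. In 2 tumors grin3ba was above both GRIN1 copies summed. It had 15.9 FPKM in brain tumor 5, where the GRIN1 copies had 9.45 FPKM, and 11.9 FPKM in brain tumor 13, where they had 0.58 FPKM. By mean FPKM grin3ba ranked 5 of the 42 receptor genes in brain tumors, or 8 without brain tumor 13, and 42 in normal brains. Of the oligodendrocyte lineage list, brain tumor 12, the lowest tumor for both grin3ba and gria4a, had a summed level of 25988 CPM, and it also held the most skin transcripts of the tumors, 1401 CPM. Brain tumor 7 had the highest, 43864 CPM, and brain tumor 8 the lowest, 14698 CPM. Brain tumor 8 and brain tumor 14, at 17964 CPM, were within the normal range. That range reached 19316 CPM in normal brain 4 and 15666 CPM in the other normal brains. A sum is led by its most abundant genes. As a mean on the log2 CPM scale, the list was at 7.49 in brain tumor 8 and 7.49 to 8.65 over the tumors. The normal brains had means of 5.82 to 6.21, so every tumor was above every normal brain on that measure. The part of these cells and of skin in the change of grin3ba and gria4a was not tested.

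**Figure D3:**
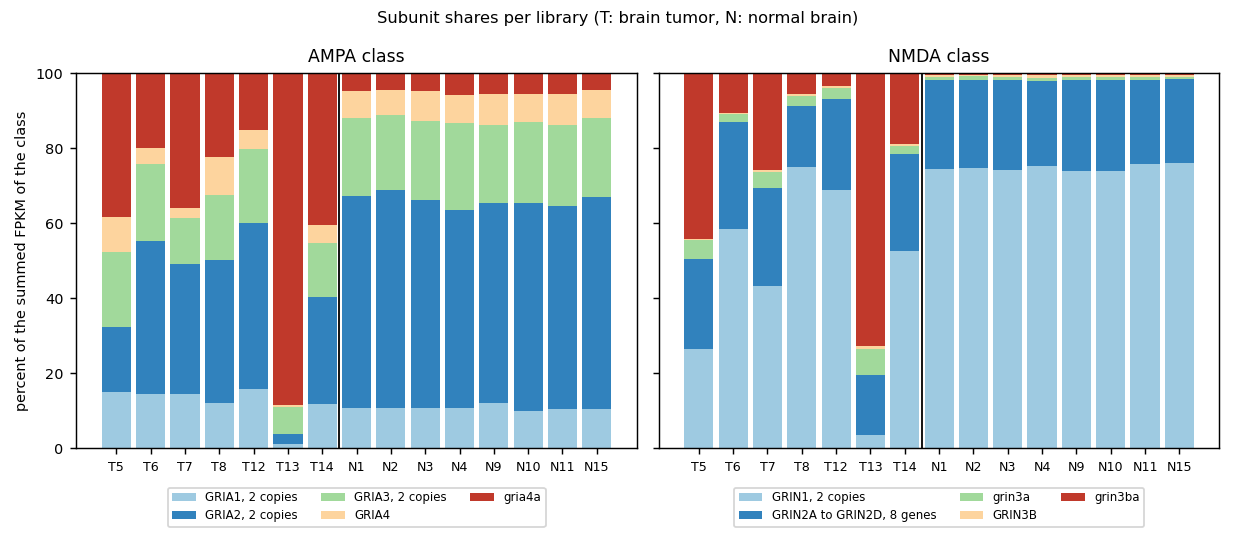
Share of each AMPA (left) and NMDA (right) subunit gene in the summed FPKM of its class, in percent, with 7 brain tumors left of 8 normal brains. The red part, gria4a or grin3ba, is 15.1% to 88.6% and 3.26% to 72.8% in the tumors, while the normal brains resemble each other.

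Among the delta receptor genes, both copies of GRID1 fell. GRID1 (ENSDARG00000044161) had 0.221, 8.51 and 15.2 CPM in brain tumors and 35.5, 37.6 and 41.6 CPM in normal brains. The groups did not overlap, and the log2 fold change was -2.31 ± 0.44 (adjusted p = 0.00018). The second copy of GRID1 (ENSDARG00000074583) had 15.5, 31.8 and 44.5 CPM in brain tumors and 37.2, 42.7 and 53.3 CPM in normal brains. The groups overlapped, with 5 tumors below every normal brain, and the log2 fold change was -0.6 ± 0.21 (adjusted p = 0.0161). Without normal brains 1, 2 and 4 and brain tumor 13 the call was lost at -0.56 (adjusted p = 0.066). The 2 GRID2IP genes fell by 3.61 (ENSDARG00000076103, SE 0.56, adjusted p = 2.02e-05) and 3.62 (ENSDARG00000095603, SE 0.51, adjusted p = 7.49e-06) on the log2 scale.

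All 13 metabotropic receptor genes fell, each without overlap, with log2 fold changes between -3.97 and -2.44 and a median of -3.44. This was the only class with no gene that rose, overlapped or failed the test, apart from the GRID2IP genes. GRM5 couples to phospholipase C. Its copy ENSDARG00000004445 had 0.0736, 6.02 and 18.6 CPM in brain tumors and 69.9, 108 and 135 CPM in normal brains. The highest tumor was below the lowest normal brain, and the log2 fold change of this GRM5 copy was -3.69 ± 0.57 (adjusted p = 2.06e-05). The other copy of GRM5 (ENSDARG00000102067) had no count in brain tumor 13, where 3 counts, the limit that a count of 0 allows, would be 0.221 CPM. Its values were 0, 0.817 and 1.83 CPM in brain tumors and 7.29, 12.9 and 16.8 CPM in normal brains.

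GRM2 and GRM3 inhibit adenylyl cyclase and lie mainly before the synapse in mammals, GRM3 also on glia. GRM2 (ENSDARG00000007195) had 6.85, 16.6 and 26.4 CPM in brain tumors and 97, 129 and 151 CPM in normal brains. It had the smallest p of the metabotropic genes (log2 fold change -2.91 ± 0.24, adjusted p = 2.37e-08). The other GRM2 copy (ENSDARG00000004150) was also at 0 in brain tumor 13. GRM3 had a log2 fold change of -3.65 ± 0.38 (adjusted p = 3.18e-07). GRM4, GRM6, GRM7 and GRM8 inhibit adenylyl cyclase too. GRM4 fell least of the metabotropic genes (-2.44 ± 0.38, adjusted p = 2.25e-05), and GRM7, the presynaptic receptor of lowest glutamate affinity in mammals, had -3.44 ± 0.32 (adjusted p = 8.32e-08). GRM6 is the receptor of retinal ON bipolar cells. Its copies had 13.3 CPM (ENSDARG00000017742) and 14.9 CPM (ENSDARG00000025671) in normal brain 2, the library with most photoreceptor transcripts. Over all normal brains the ranges were 13.3 to 21.6 CPM for the first copy and 12 to 14.9 CPM for the second. Normal brain 2 was thus at the low end of the first and the high end of the second. A list of retinal bipolar cell genes summed to 211 CPM in normal brain 2 and to 171 to 220 CPM over all normal brains. The part of retina in the GRM6 values was not tested.

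The zebrafish keeps duplicate copies of many of these genes, and 18 pairs of copies were found. The log2 ratio of the copies within a library differed between the groups in 9 of the 18 pairs (two-sided exact permutation test, adjusted over the 18 pairs). Library scaling enters this ratio only through the small count added before the logarithm, which matters where counts are low. The copy with the higher fold change in these data was set over the other, so the direction of the differences follows largely from that choice. In 7 of the 9 the ratio of every tumor exceeded that of every normal brain. For these the exact permutation p was 0.000155, the smallest that the 6435 possible group assignments allow, with an adjusted p of 0.0004. The ratio of grin3ba over GRIN3B was 4.8 ± 1.82 in brain tumors and -0.81 ± 0.13 in normal brains (SD), a difference of 5.6. That of gria4a over GRIA4 was 3 ± 2.1 in brain tumors and -0.62 ± 0.11 in normal brains, a difference of 3.62. The GRIK1 copies differed by 2.77, grin2da over grin2db by 2.76, the GRID1 copies by 2.16, the GRIA3 copies by 2.1 and the GRIA1 copies by 2.07. In each of these 7 pairs 1 copy had a log2 fold change between -3.62 and -2.31 and the other one between -1.93 and 2.45. How often pairs of other genes differ in this way was not tested. Among single genes, 33.4% of all tested were called lower and 43.5% higher. Every tumor lay below every normal brain in 24.6% of them and above in 27.2%.

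The other 2 pairs that passed had smaller differences with overlapping groups, 1.15 for GRM2 (exact permutation p = 0.0014, adjusted p = 0.00311) and 0.77 for GRIN2B (exact permutation p = 0.00155, adjusted p = 0.00311). The remaining 9 did not pass. Among them the copies of GRIN1 differed between groups by 0.03 and those of GRIA2 by -0.05 in mean log2 ratio (adjusted p = 0.931 and 0.947 in the exact permutation test). The tumors spread more widely there than the normal brains, with ratios of 0.82 ± 1.15 in brain tumors and 0.87 ± 0.2 in normal brains for GRIA2 (SD). Differences of the pairs of GRIN2A, GRIN2C, GRM6, GRM8, GRM5 and GRID2IP were between -0.33 and 0.63. The sources used here do not say how reads that match both copies were counted, so values of single copies are uncertain to that extent.

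**Figure D4:**
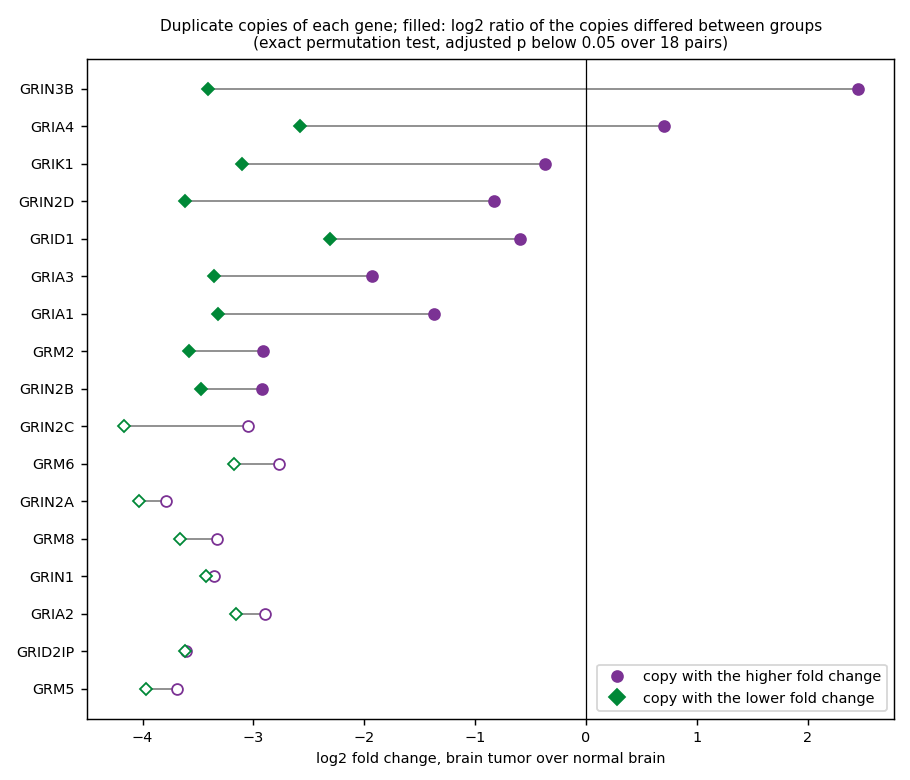
Log2 fold change (tumor over normal) of both copies of duplicated genes, with circles for the copy of higher and diamonds for that of lower fold change, filled where the ratio differed between groups. GRIN3B (2.45 and -3.41) and GRIA4 (0.7 and -2.58) are the pairs whose copies lie on opposite sides of 0.

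Set against the neuron markers of the same library, the members fell into 3 kinds. The difference of a gene's log2 CPM from the mean of the neuron list was higher in every tumor than in every normal brain for 8 members, lower in every tumor for 10, and overlapped for 26. On the same measure 75.2% of all tested genes were higher and 1.86% lower in every tumor. The 8 were grin3ba, gria4a, GRIK3, grin3a and 1 copy each of GRIK1 (ENSDARG00000040627), GRID1 (ENSDARG00000074583), GRIA1 (ENSDARG00000021352) and GRIA3 (ENSDARG00000032737). In mean difference they were higher in tumors by 5.11 for grin3ba, 3.47 for gria4a, 3.37 for GRIK3, 2.41 for this GRIK1, 2.27 for this GRID1, 2.03 for grin3a, 1.25 for this GRIA1 and 0.96 for this GRIA3. Among the 10, the mean difference from the list was lower in tumors by 1.18 and 1.21 for the GRIN1 copies (ENSDARG00000027828 and ENSDARG00000025728) and by 1.62 for GRIN2A. This is a description, since the list and these genes share their libraries.

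**Figure D5:**
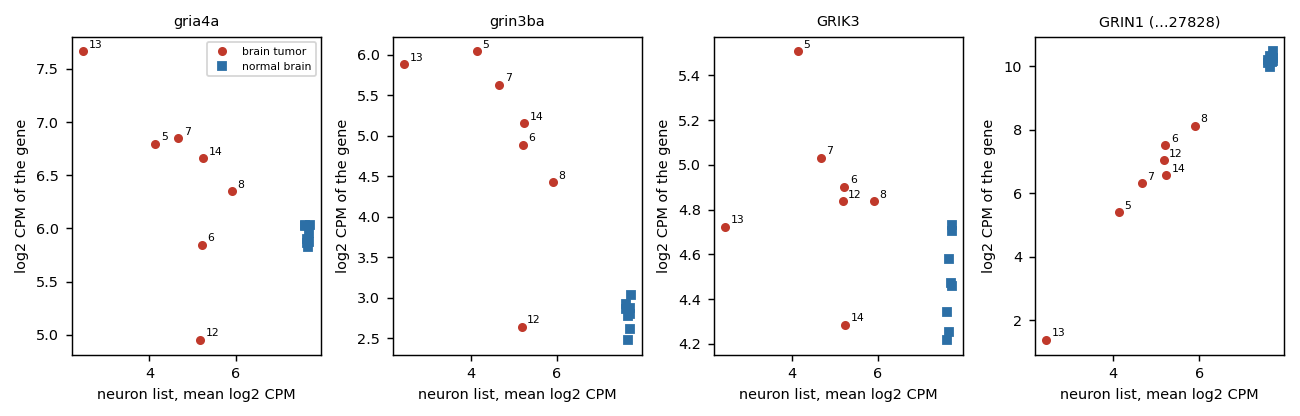
Log2 CPM of gria4a, grin3ba, GRIK3 and a GRIN1 copy in each library against the mean log2 CPM of the neuron marker list in the same library, with brain tumors in red, numbered, and normal brains in blue. Brain tumor 13 has the lowest list mean, 2.46, with the lowest GRIN1 and the highest gria4a level, and brain tumor 12 is low for gria4a and grin3ba.

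In the lists of partner genes of the receptors most genes were lower in the tumors too, except among the kainate auxiliary genes. Over all tested genes 33.4% were called lower and 43.5% higher, with a median log2 fold change of 0.21. The AMPA auxiliary list holds subunits that set the trafficking and gating of the channels. It also holds the neuronal pentraxin genes NPTX1, NPTX2, nptxra and nptxrb, which encode no channel subunits. Of its 22 tested genes 21 fell and 0 rose, with a median log2 fold change of -3.13. The smallest p values were those of the CACNG8 copies, at -3.63 ± 0.33 (ENSDARG00000020450, adjusted p = 5.69e-08) and -2.78 ± 0.25 (ENSDARG00000070626, adjusted p = 5.78e-08). A CACNG5 copy (ENSDARG00000039240) did not pass, at 6.92 CPM in brain tumors and 9.51 CPM in normal brains on average. Of the 3 kainate auxiliary genes, neto2b fell by 3.97 (SE 0.52, adjusted p = 3.99e-06), and the NETO1 copies, with log2 fold changes of 1.18 ± 0.63 (ENSDARG00000068483, adjusted p = 0.1) and -0.21 ± 0.31 (ENSDARG00000071596, adjusted p = 0.54), did not pass. Of 11 delta receptor partners, 10 fell and 1 rose. The presynaptic neurexin nrxn2a fell by 2.16 (SE 0.13, adjusted p = 4.75e-10) and CBLN1, the cerebellin that links neurexin to delta receptors, by 3.13 (SE 0.32, adjusted p = 2.55e-07), while nrxn1b had 111 ± 51.8 CPM in brain tumors and 51.5 ± 4.38 CPM in normal brains, higher by 1.11 on the log2 scale (SE 0.25, adjusted p = 0.000777).

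Of 44 genes of the postsynaptic scaffold, which holds the receptors at the synapse, 39 fell and 2 rose, 3 did not pass, and the median log2 fold change was -2.49. The smallest p values were those of DLG3, a binding protein of NMDA receptors (-2.66 ± 0.13, adjusted p = 1.25e-10), and LRRC4, a synaptic adhesion protein (ENSDARG00000069402, -3.48 ± 0.25, adjusted p = 4.12e-09). Those that rose were homer3b, a copy of the gene for a protein that tethers metabotropic glutamate receptors (73 ± 14.3 CPM in brain tumors and 25.8 ± 1.7 CPM in normal brains; 1.5 ± 0.11, adjusted p = 8.02e-09), and dlgap4a (0.98 ± 0.17, adjusted p = 8.88e-05). The other HOMER3 copy, homer3a, fell by 3.14 (SE 0.34, adjusted p = 4.11e-07). The 3 that did not pass were dlg1b, homer2 and NLGN3.

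Of 23 tested genes for the supply and uptake of glutamate and its co-agonist, 16 fell, 5 rose and 2 did not pass. GOT1, an aminotransferase that makes glutamate, fell by 1.71 (SE 0.1, adjusted p = 4.51e-10). The gene that rose most was srr, serine racemase, which makes the NMDA receptor co-agonist D-serine. It had 17.1 ± 8.05 CPM in brain tumors and 0.617 ± 0.389 CPM in normal brains, with every tumor (6.43 CPM and up) above every normal brain (1.35 CPM at most), a log2 fold change of 4.79 ± 0.43 (adjusted p = 5.39e-08). The others that rose were glud1a, glutamate dehydrogenase, at 2.33 ± 0.16 (adjusted p = 3.39e-09), the neutral amino acid transporters SLC1A4 at 1.32 ± 0.32 (adjusted p = 0.00145) and SLC1A5 at 0.51 ± 0.2 (adjusted p = 0.0257), and a copy of the glial glutamate transporter SLC1A3 (ENSDARG00000104431) at 0.54 ± 0.17 (adjusted p = 0.00765). The other SLC1A3 copy (ENSDARG00000043148) fell by 2.03 (SE 0.55, adjusted p = 0.00342). A copy of GLUL and GOT2 did not pass. With median-ratio size factors the rises of SLC1A3 (0.34, adjusted p = 0.0714) and SLC1A5 (0.32, adjusted p = 0.16) were not called.

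Of 18 tested genes that act behind metabotropic receptors, 12 fell and 4 rose, 2 did not pass, and the median log2 fold change was -0.99. GNAO1, the abundant inhibitory G protein of neurons, fell by 2.3 (SE 0.14, adjusted p = 7.73e-10) and PRKCA, a protein kinase C, by 3.63 (SE 0.26, adjusted p = 5.28e-09). The 4 that rose were the inhibitory G protein subunit genes gnai1 (0.46 ± 0.1, adjusted p = 0.000463) and GNAI2 (ENSDARG00000018174, 1.25 ± 0.17, adjusted p = 4.08e-06), the phospholipase gene PLCB3 (0.95 ± 0.21, adjusted p = 0.00059) and a copy of the calcium release channel gene ITPR1 (ENSDARG00000014655, 0.62 ± 0.17, adjusted p = 0.00358). The other GNAI2 copy (ENSDARG00000017294) fell by 0.94 (SE 0.24, adjusted p = 0.00209). The other ITPR1 copy (ENSDARG00000074149) fell by 3.78 (SE 0.41, adjusted p = 5.14e-07). Without normal brains 1, 2 and 4 and brain tumor 13 the rise of the first ITPR1 copy was not called (0.46, adjusted p = 0.0596). The genes that did not pass were gna11a and trpm1b.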

How the data were processed

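The values come from a deposited table of 22513 genes and 15 libraries, 7 brain tumors and 8 normal brains, grouped by the labels. Its counts are whole reads per gene, without normalization, per the file headers. Its FPKM values were computed by the authors from the counts, the gene length and the column total. A log2 column holds the authors' log2 fold change (tumor over normal), and a p-value column their adjusted p-value, as deposited. The submitters' processing notes name the aligner Novoalign (version 2.08.01) and DESeq2, without settings. For the read counter, strand setting, genome build and annotation: not given in the sources used here. Every gene of the table has at least 10 counts over all libraries. The table has no value column that was left unused, and no pair of libraries was identical.

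Counts were tested with edgeR 4.0.16 in R 4.3.3: filterByExpr (minimum count 10, minimum total 15) kept 19260 genes and removed 3253, TMM factors scaled the library sizes, and a quasi-likelihood fit with the group as its only term gave two-sided p-values, adjusted over the 19260 genes (Benjamini-Hochberg, threshold 0.05). Each SE is the absolute log2 fold change over the square root of the F statistic. CPM were taken on scaled library sizes, log2 CPM with a prior count of 2. Pairs of copies were compared by an exact permutation test with 6435 group assignments (Python 3.11.15, scipy 1.17.1), on their log2 CPM ratio, which the prior count pulls toward 0 at low counts. Pairs were IDs with the same symbol or the same symbol apart from a final a or b, and in GRIN2 and GRIN3 genes the subunit letter was kept as part of the name. Gene lists were matched by symbol with an optional final a, b or c, so LRRC4B and LRRC4C entered the scaffold list. Lowest, median and highest values are given for members that rose or did not pass and, in each class, for those of highest FPKM and smallest p. Some further members, such as GRIA4, GRIN3B, grin2da, grin3a and the GRM5 copies, are given in the same way outside this rule. In other lists the members of the 2 smallest p and those behind small counts are named. The other copies of homer3b, SLC1A3, GNAI2 and ITPR1 were named after their values were seen. Some genes that these rules would name are not reported here. The members, the lists and the tests were chosen with earlier results of these data known. Alternatives were other scalings and filters, robust dispersions, DESeq2 1.42.0, limma-voom (limma 3.58.1), libraries 1 to 8 and 9 to 15 alone, a fit without 4 libraries, and each library left out in turn. A ranking without brain tumor 13 was added after seeing the data. The pipeline was run on simulated counts in which 200 genes were changed. In the data 8370 genes were called higher and 6436 lower, so the simulation does not test it under a change of that extent. The limit of 3 counts for a count of 0 covers counting error only.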

Additional observations from a re-analysis of the deposited data

Results flagged for a closer look

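In 18 of 82 sets of values (41 genes in each group), 1 library stood apart from its group by Dixon's test at the 95% level, on the log2 CPM scale. Chance flags about 5% of groups, and the share here was 22%. The sets share their libraries and are not independent, so setting these shares side by side is no test of chance. The flagged libraries were brain tumor 13 in 15 genes and normal brain 4 in 3, low in each case.

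Brain tumor 13 was far below the other 6 tumors in AMPA genes. It had 1.84 CPM for GRIA1 (ENSDARG00000021352) and 0.221 CPM for the other GRIA1 copy (ENSDARG00000032714). It had 1.55 CPM for GRIA2 (ENSDARG00000052765) and 4.71 CPM for the other GRIA2 copy (ENSDARG00000070173), and 0.221 CPM for GRIA3 (ENSDARG00000037498). GRIK5 was at 1.77 CPM there. Among NMDA genes it had 2.58 CPM for GRIN1 (ENSDARG00000027828), where the other tumors had 42.1 to 277 CPM, 0.368 CPM for grin2ab, and 0.81 CPM (ENSDARG00000030376) and 1.25 CPM (ENSDARG00000079348) for the GRIN2B copies. The delta receptor gene GRID1 (ENSDARG00000044161) stood at 0.221 CPM and GRID2IP (ENSDARG00000095603), which is no receptor gene, at 0.515 CPM. Metabotropic genes stood at 0 CPM for GRM2 (ENSDARG00000004150), 0.221 CPM for GRM3 and 0.0736 CPM for GRM5 (ENSDARG00000004445). The neuron marker list was lowest in this tumor too, and its part in these values was not tested.

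Normal brain 4 was the lowest normal brain with 138 CPM for GRIA3 (ENSDARG00000032737), where the other normal brains had 142 to 145 CPM. It had 89.1 CPM for GRID2IP (ENSDARG00000076103) and 29.5 CPM for GRM3. This library held 4292 CPM of skin genes, against 57.4 to 328 CPM in the other normal brains, and the part of skin tissue in these values was not tested.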

How the results depend on the processing

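No member changed direction under any of 27 alternatives, 15 of which left out 1 library each. For 38 of the 44 members the call stayed on the same side of the threshold in every alternative that tested them. The number called lower, 40, was 40 to 41 with a library left out and 38 to 40 otherwise. The number called higher, 3, was 1 to 3 with a library left out, and 1 without normal brain 1, 2, 4 or 11. It was also 1, grin3ba, with median-ratio size factors, library size without the 50 largest genes, a filter at a mean of 5 CPM, DESeq2, limma-voom, without normal brain 1, 2 and 4 and brain tumor 13, and in libraries 9 to 15. The cause was not tested. Beyond gria4a, GRIK3 and GRIK1 (ENSDARG00000040627), calls were lost for GRIK4 in libraries 9 to 15 (-2.0, adjusted p = 0.0628), grin2da in libraries 1 to 8, and GRID1 (ENSDARG00000074583) in libraries 1 to 8 (-0.55, adjusted p = 0.0915), 9 to 15 (-0.83, adjusted p = 0.0772) and without the 4 libraries. Of 18 pairs, 9 passed, and 9 to 11 with a library left out and 10 with a prior count of 0.5. No paired analysis was possible because each library has its own number. Genes below 1 CPM in tumors rest on few counts.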
